A study of Mus musculus with 18 samples.

Results

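The principal cell is the sodium- and water-handling cell of the renal collecting duct, and 10 genes that carry out this work were followed in kidney RNA of the offspring of protein-restricted and control dams. The genes were chosen by name for the known functions of their products, with earlier results of these data known. The 10 are among 78239 genes listed in each file. They are the epithelial sodium channel subunits *Scnn1a*, *Scnn1b*, and *Scnn1g*, the water channels *Aqp2*, *Aqp3*, and *Aqp4*, the vasopressin receptor *Avpr2*, the transcription factor *Gata3*, the ubiquitin ligase *Nedd4l*, and the sodium pump subunit *Fxyd4*. RNA from a piece of the left kidney of 18 wild-type CD-1 mice aged 6 wk was sequenced, with 1 library per mouse. LP offspring (5 males and 5 females) were born to dams fed 8% protein through gestation and lactation, and NP offspring (5 males and 3 females) to dams fed 18% protein. All offspring received the NP diet from weaning and all had been injected with cationic ferritin, a label of the glomerular basement membrane. Between the last injection and collection less time passed in males than in females, so sex and that interval cannot be told apart.

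Water and sodium cross the principal cell by separate routes. Vasopressin acts through the V2 receptor, which raises cyclic AMP and brings aquaporin-2 to the apical membrane, and the water leaves the cell through aquaporin-3 and aquaporin-4 on the basolateral side. Sodium enters through the apical channel ENaC, which is built from an alpha, a beta, and a gamma subunit, is raised by aldosterone, and is removed from the membrane by the ligase NEDD4-2, and it leaves through the basolateral Na,K-ATPase. Gata3 is a transcription factor of the ureteric bud and of the collecting duct that grows from it. Some of these genes are also transcribed elsewhere in the kidney: *Nedd4l* and *Scnn1a* along the distal nephron, and *Gata3* in mesangial cells and T cells. These sites may not be the only ones, and the cell source of the reads was not measured for any of the genes.

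The number of reads on genes ranged from 14050486 to 23562411 per library, and another 28.6% to 36.1% of the reads were not counted on 1 gene. Of the 10 genes, 9 had at least 10 counts in all 18 libraries, and *Avpr2* did not. The tissue label was compared with marker genes. Proximal tubule markers summed to between 8011 and 15050 CPM (the count scaled to the library size as adjusted by TMM) over the 18 libraries, and T cell markers to between 1.02 and 14.4 CPM. LP female 1, LP female 2, and NP female 3 stood apart from the other females, with sums of 322, 329, and 649.9 CPM over 8 glucocorticoid response genes, against 1281 to 1902 CPM in the other 5. Their interferon response genes summed to 98.7, 125, and 73.0 CPM, against 697 to 2755 CPM in the other 5. NP female 3 also had the largest share of reads not counted on 1 gene, 36.1%. Urothelial markers were highest in NP male 3, LP male 4, and NP female 2, at 114, 63.8, and 52.2 CPM. Where a call on a member was lost or gained without either set of libraries, both values are given.

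The bases before the start of *Aqp2* and *Fxyd4* are shown because these genes had the most similar levels of any pair of members across mice. Both are the 250 bases before the RefSeq start on build GRCm38.p6, read on the strand of the gene. *Aqp2* is at chr15:99578806-99579055 on the plus strand, and *Fxyd4* at chr6:117937336-117937585 on the minus strand. Capitals mark 2 kinds of letters, searched on both strands. The first kind, the GATA letters, is GATA with an A or a T before it and an A or a G after it. The second kind, TGACGT, is the core of a cyclic AMP response element.
Aqp2: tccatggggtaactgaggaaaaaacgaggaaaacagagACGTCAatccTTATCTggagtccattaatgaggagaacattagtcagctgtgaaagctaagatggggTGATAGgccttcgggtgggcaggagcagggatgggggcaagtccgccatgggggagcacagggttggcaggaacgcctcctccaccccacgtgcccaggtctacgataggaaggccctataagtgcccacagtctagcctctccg
Fxyd4: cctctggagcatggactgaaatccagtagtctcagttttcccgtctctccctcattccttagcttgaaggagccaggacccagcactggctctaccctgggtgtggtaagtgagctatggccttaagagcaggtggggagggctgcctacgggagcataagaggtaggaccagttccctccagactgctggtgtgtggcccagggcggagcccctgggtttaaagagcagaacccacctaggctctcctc
The *Aqp2* stretch held GATA letters on the minus strand from -202 to -197 relative to the start and on the plus strand from -145 to -140, and the cyclic AMP letters on the minus strand from -212 to -207. The matches did not overlap. The *Fxyd4* stretch held none of these letters. In windows of 250 bases before to 50 after the start, 7 of the 10 genes had an entry in the set of RefSeq windows used here. GATA letters were present in *Aqp2*, *Gata3*, and *Avpr2*, and the cyclic AMP letters in *Aqp2*. *Aqp3*, *Fxyd4*, *Scnn1b*, and *Scnn1g* had neither, and *Scnn1a*, *Aqp4*, and *Nedd4l* were not searched. Over 32851 RefSeq windows of the same length, 29.8% held the GATA letters, 7.51% the cyclic AMP letters, and 1.59% both. A match of letters is a description and not a measured binding site.

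Levels between genes were compared per kilobase of exon. The length joined all annotated exons of a gene, 22100 bases for *Nedd4l* against 6555 for *Aqp4*, the next longest. The place of *Nedd4l* in the order depends on that length. The order of the means over 18 mice was *Aqp2* (87.8 ± 36 CPM per kb, SD), *Aqp3* (53.4 ± 11.6), *Scnn1a* (34.4 ± 10.4), *Scnn1b* (16 ± 4.91), *Fxyd4* (13.3 ± 6.03), *Scnn1g* (13.1 ± 3.20), *Aqp4* (12.7 ± 10.2), *Nedd4l* (6.21 ± 1.68), and *Gata3* (3.06 ± 0.929). From *Scnn1b* to *Nedd4l*, and between *Aqp2* and *Aqp3*, neighbors in this order differed by less than the larger of their SDs. *Aqp4* varied most between mice, from 8.50 CPM in NP male 3 to 199 CPM in NP female 1, a 23.5-fold range. *Fxyd4* varied 5.17-fold and *Aqp2* 4.25-fold, whereas the other 6 genes varied between 2.25-fold and 2.89-fold. Counts behind the lowest values were 114 for *Gata3*, 132 for *Aqp4*, and 177 for *Fxyd4*.

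**Figure D1:**
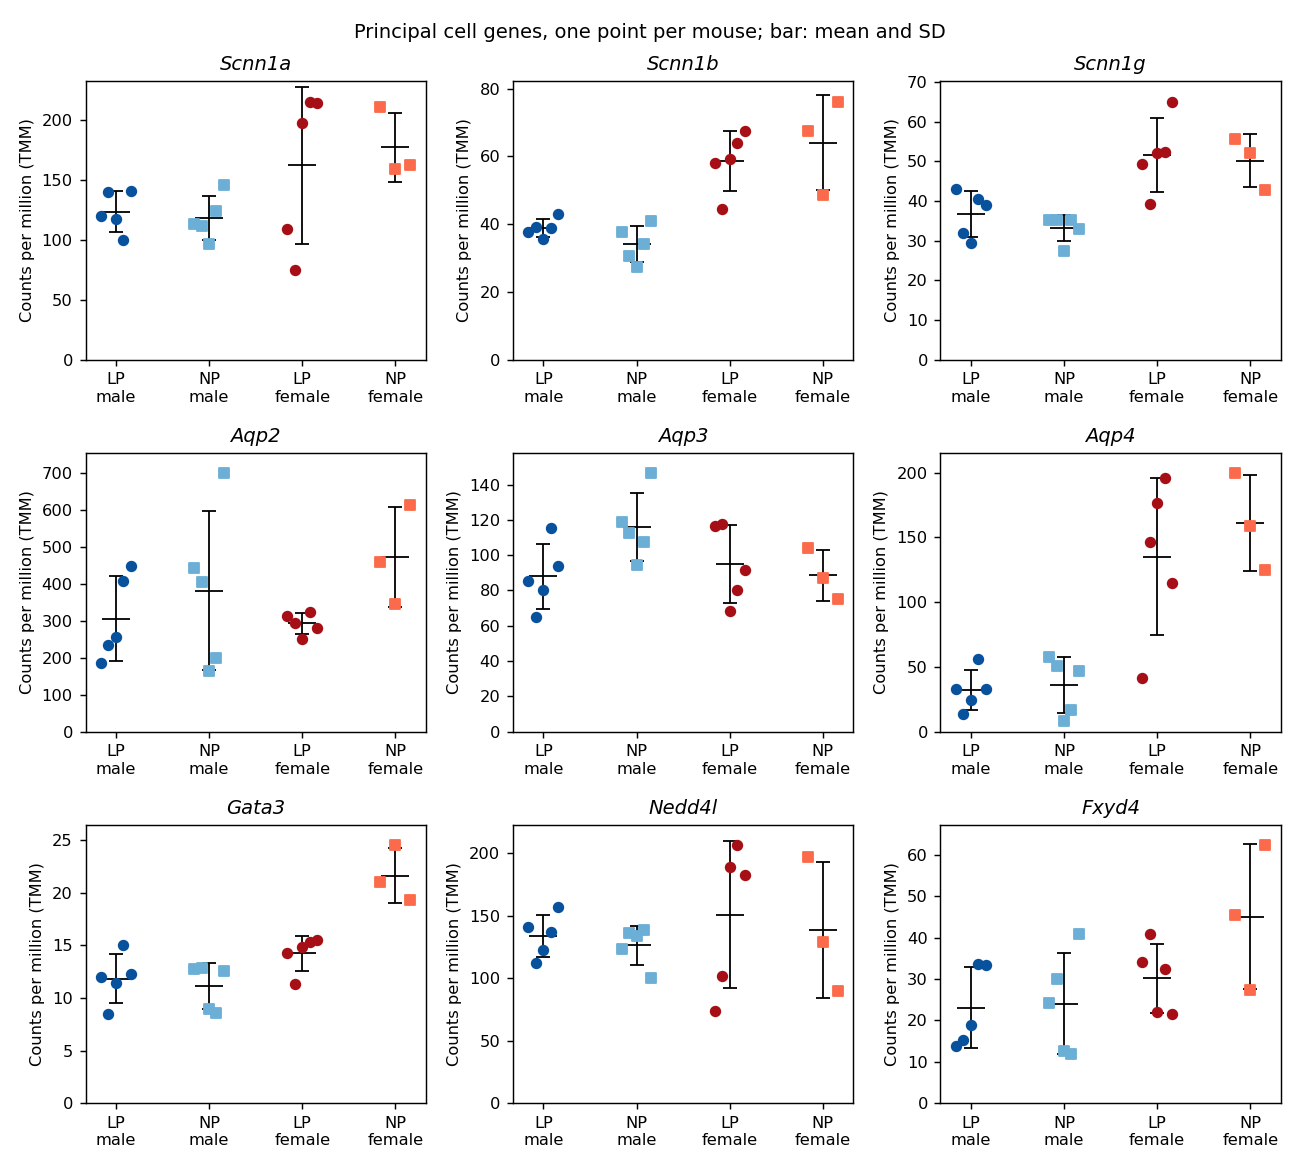
TMM-scaled CPM of 9 principal cell genes (y axis, from 0) in each mouse, by group (x axis); points are mice and bars the mean and SD over 5 mice, or 3 in NP females. *Scnn1b* was at most 43.0 CPM in males and at least 44.6 CPM in females, and *Aqp2* and *Gata3* were lower in every LP female than in every NP female.

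The first question was whether the maternal diet altered these genes in males. Of 9 genes tested, 0 passed an adjusted p of 0.05 with edgeR's quasi-likelihood test, where 5 of 13181 genes did (0.0379%), and DESeq2 and limma-voom also called 0 of the 9. At an unadjusted p under 0.05 there was 1 of 9 members, against 3.84% of all genes. The median log2 fold change (LP minus NP) was 0.06 over the members and -0.0039 over all genes tested.

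*Aqp3*, the basolateral glycerol and water channel (chr4:41092722-41098183, GRCm39), had the smallest p in males. It was at 85.6, 65.2, 80.4, 115, and 94.0 CPM in the 5 LP males and at 119, 112, 94.3, 107, and 146 CPM in the 5 NP males. LP males were lower on average, and LP male 4 lay within the NP range, so the groups overlapped. LP minus NP came to -0.40 on the log2 scale (SE 0.15), at an unadjusted p of 0.01839 and an adjusted p of 0.9996 in edgeR. In females the value was 0.06 (SE 0.21), and the difference between the sexes in this effect, 0.46 (SE 0.26), had an unadjusted p of 0.09311 and an adjusted p of 0.9771 in edgeR.

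None of the ENaC subunits passed the test by diet in males. Their log2 fold changes were 0.06 (SE 0.12) for *Scnn1a*, 0.19 (SE 0.11) for *Scnn1b*, and 0.14 (SE 0.12) for *Scnn1g*, with adjusted p = 0.9996 for each in edgeR. *Nedd4l* was at 0.07 (SE 0.12) and *Gata3* at 0.09 (SE 0.17). The genes with the widest spread between males gave the least certain values: *Aqp2* was at -0.32 (SE 0.36), *Aqp4* at -0.17 (SE 0.47), and *Fxyd4* at -0.06 (SE 0.35). Single libraries moved these values. *Aqp2* was at 0.0056 without NP male 5, the highest of all mice at 699.9 CPM. Without LP male 4 and NP male 3, the males richest in urothelial markers, *Aqp2* was at -0.63, *Aqp4* at -0.72, *Fxyd4* at -0.39, *Aqp3* at -0.58, and *Scnn1g* at 0.048, and none was called.

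In females the same question was asked of 5 LP and 3 NP mice. Of 9 genes tested, 0 passed an adjusted p of 0.05 with edgeR, as did 0 of 13510 genes (0%), and DESeq2 and limma-voom called 0 of the 9. At an unadjusted p under 0.05, 564 of all genes (4.17%) and 2 of 9 members passed, *Aqp2* and *Gata3*, both lower in LP. Of all genes, 2.75% had such a p and were lower in LP.

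*Aqp2*, the vasopressin-regulated apical water channel (chr15:99476936-99485016, GRCm39), was at 315, 295, 252, 323, and 282 CPM in the 5 LP females and at 461, 346, and 614 CPM in the 3 NP females. The 2 groups did not overlap, with LP the lower, which was so for 1.03% of all genes tested. LP minus NP came to -0.74 on the log2 scale (SE 0.20), at an unadjusted p of 0.004137 and an adjusted p of 0.8857 in edgeR, and the gene ranked 34 of 13510 by p. The LP females were close to each other, with a coefficient of variation of 9.70%, against 28.4% in NP females, 37.5% in LP males, and 56.4% in NP males.

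*Gata3* (chr2:9861889-9894845, GRCm39) was at 14.2, 11.3, 14.8, 15.3, and 15.4 CPM in LP females and at 21.0, 24.5, and 19.3 CPM in NP females. These groups did not overlap either, with LP again the lower. LP minus NP was -0.64 on the log2 scale (SE 0.16), at an unadjusted p of 0.002516, an adjusted p of 0.8857 in edgeR, and rank 20 of 13510. The paper already reported *Gata3* as lower in LP females from its candidate-gene analysis of the same series and from qRT-PCR. The p and rank of *Gata3* here are therefore not independent of that result. In males *Gata3* was between 8.48 and 15 CPM in LP and between 8.56 and 12.8 CPM in NP, with overlap. All 3 NP females were above all other mice in *Gata3*. The diet by sex interaction was -0.74 (SE 0.23, unadjusted p = 0.005036, adjusted p = 0.9771 in edgeR), where edgeR called 2 of 12665 genes (0.0158%) and edgeR, DESeq2, and limma-voom each called 0 of 9 members. At an unadjusted p under 0.05 the interaction had 1 of 9 members, *Gata3*, against 4.02% of all genes.

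*Fxyd4*, whose product regulates the Na,K-ATPase (chr6:117910299-117914653, GRCm39), was at 34.2, 40.9, 22, 32.4, and 21.6 CPM in LP females and at 45.5, 27.4, and 62.2 CPM in NP females. NP female 2 lay among the LP females, and without NP female 3 the log2 fold change was -0.27. Its log2 fold change, -0.63 (SE 0.30), had an unadjusted p of 0.06402 and an adjusted p of 0.8857 in edgeR. The other 6 genes were between -0.29 (*Aqp4*, SE 0.40) and 0.09 (*Nedd4l*, SE 0.36), with *Scnn1a* at -0.17 (SE 0.33), *Scnn1b* at -0.17 (SE 0.19), and *Scnn1g* at 0.01 (SE 0.17).

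Markers of neighboring cells were measured beside these values. Thin limb markers summed to between 102 and 185 CPM in LP females and between 159 and 247 CPM in NP females, and all 4 tested were lower in LP, 0 of them called. Mesangial markers, a list that contains *Gata3*, summed to between 64.3 and 94.5 CPM in LP females and between 43.2 and 110 CPM in NP females. T cell markers summed to between 2.44 and 12 CPM and between 4.49 and 14.4 CPM, respectively. Urothelial markers summed to between 6.32 and 24.2 CPM and between 5.17 and 52.2 CPM. Of the 7 osmolyte and medulla genes tested, 0 were called and 5 had values below 0, with a median of -0.33 on the log2 scale. The 2 at an unadjusted p under 0.05 were *Akr1b1* (-1.41, SE 0.56), an aldose reductase, and *Ptgs1* (-0.68, SE 0.30), a cyclooxygenase. *Akr1b1* was at 30.6 to 203.6 CPM in NP females, with a median of 33.9 CPM, and at 23.9 to 48.8 CPM in LP females. Its difference thus rested mainly on the highest NP female. The osmolyte and medulla list summed to between 529 and 1156 CPM in LP females and between 434 and 1066 CPM in NP females. The part of these cells, and of how much medulla a piece of kidney held, in the differences was not tested. In bulk RNA, fewer principal cells and less RNA per cell cannot be told apart. Without LP female 1, LP female 2, and NP female 3, *Aqp2* was at -0.51 on the log2 scale, and it was between -0.92 and -0.46 without any 1 library.

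Over both sexes, 0 of 9 members were called by edgeR, DESeq2, or limma-voom, where edgeR called 1 of 12665 genes (0.0079%). *Aqp2* (log2 fold change -0.54, SE 0.24, unadjusted p = 0.04156) and *Gata3* (-0.28, SE 0.12, unadjusted p = 0.02475) were the 2 of 9 members at an unadjusted p under 0.05, against 6.5% of all genes, and each had an adjusted p of 0.7628 in edgeR. No diet comparison called a member under any alternative that was run.

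**Figure D2:**
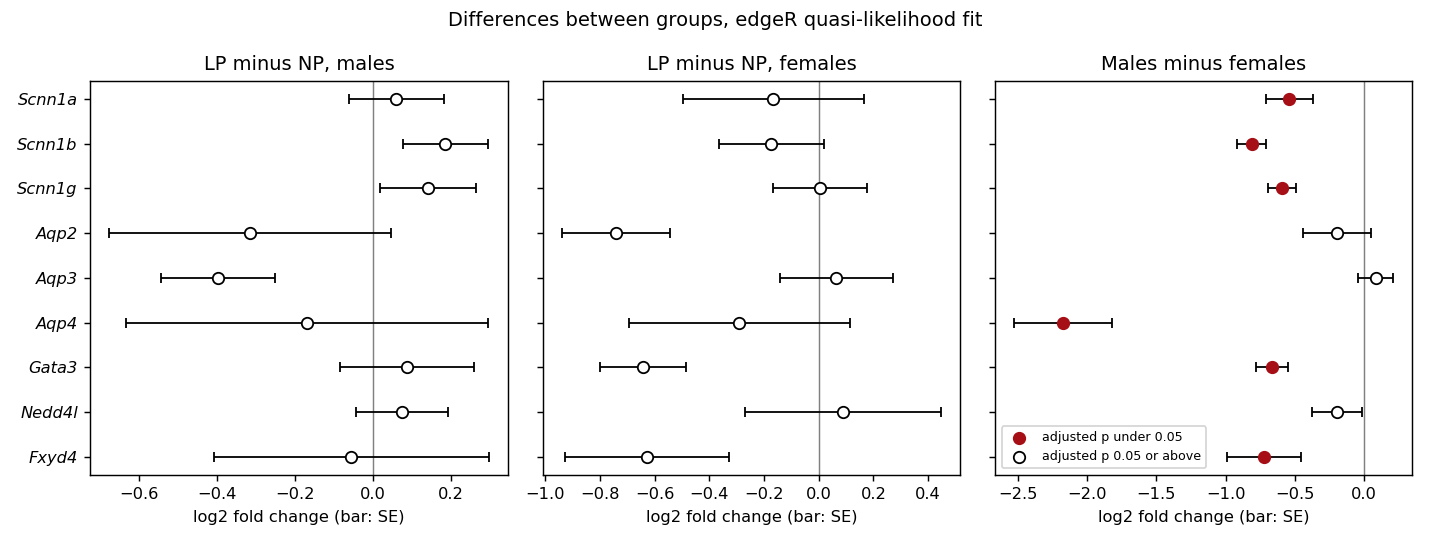
Log2 fold changes (x axis; scale differs between panels) of 9 genes (y axis) for LP minus NP in males, LP minus NP in females, and males minus females; bars are the SE and filled points have an adjusted p under 0.05 in edgeR. The 6 filled points lie in the sex panel, all below 0, with *Aqp4* at -2.17.

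The kidneys of males were next compared with those of females, as the mean of the differences within LP and within NP. Of 9 genes tested, 6 were lower in males and 0 higher at an adjusted p under 0.05, where 19.8% of 12665 genes were lower and 18.9% higher in males, so that 38.7% were called in all. The median log2 fold change (males minus females) was -0.59 over the members and -0.051 over all genes. The 6 genes were the 3 ENaC subunits, *Aqp4*, *Gata3*, and *Fxyd4*. *Aqp2*, *Aqp3*, and *Nedd4l* were not called.

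All 3 ENaC subunits were lower in males. *Scnn1b* (beta subunit, chr7:121463946-121517737, GRCm39) was at 37.7, 39.1, 35.6, 38.9, and 43.0 CPM in LP males and at 37.6, 30.5, 27.4, 34.1, and 41.0 CPM in NP males. In LP females it was at 58.1, 44.6, 59.2, 63.9, and 67.5 CPM and in NP females at 67.4, 48.6, and 76.1 CPM. Every male was below every female, as was so for 1.82% of all genes tested. Males minus females came to -0.81 on the log2 scale (SE 0.11), at an adjusted p of 1.238e-05 in edgeR, and the call held in each of 11 alternatives and without any 1 library.

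*Scnn1g* (gamma subunit, chr7:121333545-121367755, GRCm39), which ends 96190 bases before *Scnn1b*, was at a mean of 36.8 ± 5.81 CPM (SD, n = 5) in LP males, 33.2 ± 3.37 (n = 5) in NP males, 51.6 ± 9.23 (n = 5) in LP females, and 50.1 ± 6.68 (n = 3) in NP females. The highest male, at 43.1 CPM, was above LP female 2 and NP female 3. Males minus females was -0.59 on the log2 scale (SE 0.10), at an adjusted p of 0.0001477 in edgeR.

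*Scnn1a* (alpha subunit, chr6:125297622-125321906, GRCm39) was at 119.8, 139.9, 118, 99.99, and 141 CPM in LP males and at 113, 112, 96.4, 125, and 146 CPM in NP males. In LP females it was at 109, 75.4, 198, 216, and 214 CPM and in NP females at 211, 159, and 162 CPM. LP female 1 was within the male range and LP female 2 below every male, and the other 6 females were above every male. Males minus females came to -0.54 on the log2 scale (SE 0.17), at an adjusted p of 0.01657 in edgeR. It was -0.74 without LP female 1, LP female 2, and NP female 3, and the call was lost, at an adjusted p of 0.05247 in edgeR, without the 3 libraries richest in urothelial markers.

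The ratio of *Scnn1a* to *Scnn1b*, each per kilobase, was 2.27 ± 0.266 (SD, n = 5) in LP males, 2.48 ± 0.191 (n = 5) in NP males, 1.92 ± 0.594 (n = 5) in LP females, and 2.03 ± 0.444 (n = 3) in NP females. The lowest ratio over all mice was 1.21 and the highest 2.61. The ratio of *Scnn1b* to *Scnn1g* lay between 0.941 and 1.94, with a mean of 1.22 ± 0.225 (SD, n = 18). The alpha subunit thus had the most RNA of the 3 subunits per length in every mouse.

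*Aqp4*, a basolateral water channel (chr18:15522451-15544039, GRCm39), had the widest difference between the sexes of the 9 genes. It was at 32.8, 14, 24.6, 55.8, and 32.7 CPM in LP males and at 57.4, 50.8, 8.50, 16.8, and 46.7 CPM in NP males. LP females were at 41.4, 146, 177, 196, and 115 CPM, and NP females at 199, 159, and 125 CPM. LP female 1 lay among the males, and the other 7 females were above every male. The fitted level was 4.51-fold lower in males, a log2 value of -2.17 (SE 0.35), at an adjusted p of 0.0001133 in edgeR. It was between -2.33 and -2.06 without any 1 library.

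*Gata3* was lower in males as well, at -0.66 on the log2 scale (SE 0.11) and an adjusted p of 0.0002076 in edgeR. The difference rested mainly on the NP mice, at -1.02 within NP and -0.29 within LP, where it was not called (adjusted p = 0.1978 in edgeR). *Fxyd4* was at 13.9, 15.3, 18.9, 33.6, and 33.4 CPM in LP males and at 24.2, 30.1, 12.7, 12, and 40.9 CPM in NP males, which overlapped with the females in both diets. Its call, at -0.72 on the log2 scale (SE 0.26) and an adjusted p of 0.03761 in edgeR, was the least stable of the 6 calls. The call was kept in 7 of the 18 fits that left out 1 library, with adjusted p up to 0.133, and it was lost without LP female 1, LP female 2, and NP female 3 (-0.41, adjusted p = 0.2833 in edgeR).

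Of the 3 genes that were not called between the sexes, *Aqp2* was at -0.19 (SE 0.24, adjusted p = 0.5607 in edgeR) and *Aqp3* at 0.08 (SE 0.13, adjusted p = 0.6513). *Nedd4l*, the ENaC-directed ligase (chr18:65020724-65350899, GRCm39), was at -0.20 (SE 0.18, adjusted p = 0.4058). It was at 73.9, 102, and 89.9 CPM in LP female 1, LP female 2, and NP female 3, and at 188, 206, 182, 197, and 129 CPM in the other 5 females. Males were between 100.4 and 156 CPM. The 3 low females were those that stood apart, and without them *Nedd4l* was lower in males, at -0.48 (SE 0.11, adjusted p = 0.003128 in edgeR).

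Within LP mice alone 3 of 9 members were called lower in males (*Scnn1b*, *Scnn1g*, and *Aqp4*), where 1059 of 13228 genes were (8.01%). Within NP mice alone 5 of 9 were called (these 3, *Scnn1a*, and *Gata3*), where 893 of 12952 genes were (6.89%). Marker genes of other nephron cells moved with the sex difference. With both diets in the fit, 19.8% of all genes tested were called lower in males and 18.9% higher. Of the intercalated cell markers tested, 8 of 9 were called lower in males. Their sums were 259 to 316 CPM in LP males and 246 to 310.5 CPM in NP males. In females they were 329 to 533 CPM in LP and 411 to 526.3 CPM in NP. All 5 distal convoluted tubule markers and all 6 podocyte markers were called lower in males as well. So were 3 of 4 thin limb and 3 of 7 thick ascending limb markers. Of the 7 proximal tubule markers, 2 were called higher in males and 0 lower, and by sign 4 were higher and 3 lower. No marker of the intercalated cell, distal convoluted tubule, or podocyte list was at 0 in a library. The part of cell composition in the sex difference was not tested.

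*Avpr2*, the vasopressin V2 receptor (chrX:72935708-72939108, GRCm39), had between 0 and 4 counts per library in the column that disregards strand. Of its 2886 exon bases, 2347 (81.3%) are shared with exons of *Arhgap4* on the opposite strand, and reads on bases of both genes are counted on neither in that column. The files also hold a column of counts for each strand. Summed over both, *Avpr2* had between 175 and 633 reads per library. Since the library was non-directional, this sum holds reads of *Arhgap4* from the shared bases too. If *Arhgap4* had the same read density there as on its other 7072 exon bases, it would account for 2.32% to 7.48% of the sum. The 539 exon bases of *Avpr2* that *Arhgap4* does not share form 1 stretch. At the density of the sum they would hold 32.7 to 118 reads per library, and the 0 to 4 reads above were all that was counted on *Avpr2* outside the shared bases. Neither gene had on its own bases the density of the shared stretch, so how the sum divides between *Avpr2* and *Arhgap4* cannot be told apart, and the values below are those of the summed reads.

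**Figure D3:**
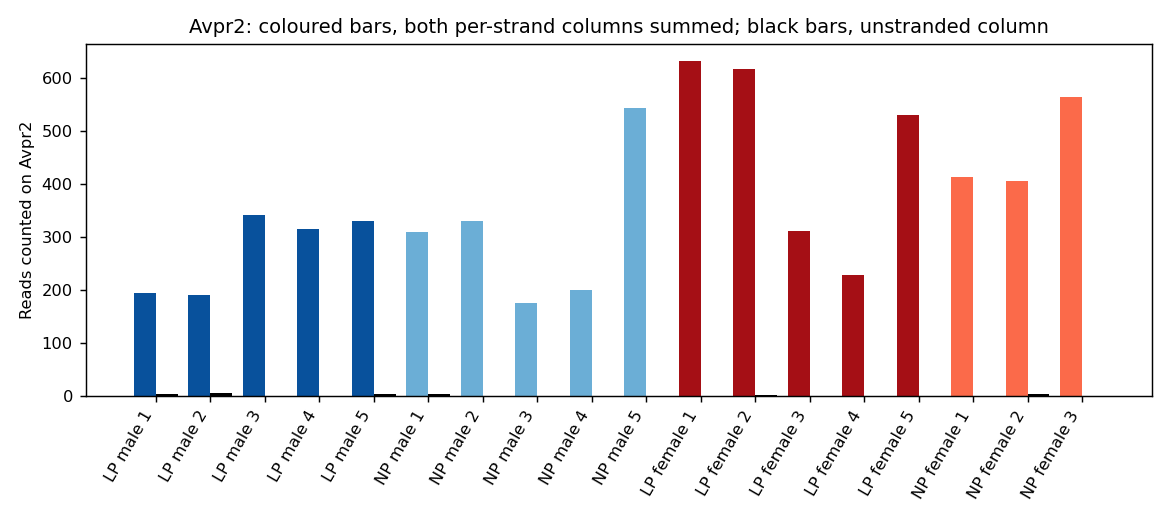
Reads counted on *Avpr2* in each library (x axis, by group): coloured bars are the sum of both per-strand columns and black bars the column without regard to strand. The coloured bars lie between 175 and 633 reads and the black bars between 0 and 4.

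By the summed columns, reads assigned to *Avpr2* were at 14.2, 14.1, 19.3, 14.6, and 18.6 CPM in LP males and at 22.1, 20.1, 11.3, 13.5, and 32.7 CPM in NP males. It was at 28.6, 29.6, 16.1, 13.8, and 21.4 CPM in LP females and at 24.5, 22.2, and 36 CPM in NP females. NP male 3 was lowest and NP female 3 highest, and LP and NP overlapped within each sex. Males and females overlapped as well. LP males did not overlap with NP females, but those groups differ in both diet and sex, and their comparison was not tested. In a fit of the summed columns, chosen after the data were seen, the log2 fold change of males minus females in these reads was -0.53 (SE 0.20, adjusted p = 0.04929 in edgeR). LP minus NP was -0.31 (SE 0.24) in males and -0.40 (SE 0.30) in females, with adjusted p of 0.9996 and 0.8212 in edgeR. For the other 9 genes the summed columns held 1 to 1.115 times the reads of the main column at the median.

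Pathway genes outside the 10 were described from 4 lists. Of 20 genes that regulate ENaC or carry potassium, 0 were called by diet in either sex. Between the sexes 6 of 19 were called lower in males and 1 higher, where 19.8% of all genes tested were called lower and 18.9% higher. *Sgk1* (-1.83, SE 0.28), the aldosterone-induced kinase that restrains NEDD4-2, and *Nr3c2* (-0.82, SE 0.12), the mineralocorticoid receptor, were lower. So were *Hsd11b2* (-0.84, SE 0.14), the enzyme that inactivates glucocorticoids in these cells, and *Klk1* (-0.88, SE 0.14), a protease. The potassium channels *Kcnj1* (-0.73, SE 0.09) and *Kcnj10* (-0.65, SE 0.10) were lower as well. *Furin* (0.49, SE 0.08), a protease that cleaves ENaC, was higher. *Sgk1* is also one of the 8 glucocorticoid response genes, and the 3 females that stood apart had low sums of that list. By diet, *Kcnj10* had the smallest p of the list in males (0.34, SE 0.10, unadjusted p = 0.005776, adjusted p = 0.9996 in edgeR), followed by *Kcnma1* (0.68, SE 0.32) and *St14* (0.31, SE 0.20). In females the smallest were *Fxyd2* (-0.50, SE 0.30), *Spint2* (-0.39, SE 0.24), and *Nedd4* (0.30, SE 0.23).

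Of 24 genes of vasopressin signaling and of water and urea transport, 0 were called by diet. Between the sexes 6 of 21 were called lower in males and 0 higher, against 19.8% and 18.9% of all genes tested. The 6 included *Akap7* (-0.86, SE 0.16), a protein kinase A anchor, and *Adcy6* (-0.61, SE 0.12), an adenylyl cyclase. The others were the receptors *P2ry2* (-0.84, SE 0.17), *Ptger3* (-0.80, SE 0.20), and *Avpr1a* (-0.60, SE 0.17), and *Aqp6* (-0.70, SE 0.23), an intercalated cell aquaporin. *Ptger3* is also among the thick ascending limb markers. The smallest p by diet were those of *Avpr1a* (0.48, SE 0.22), *Prkaca* (-0.17, SE 0.08), and *Ptger3* (-0.38, SE 0.22) in males and of *Aqp11* (0.31, SE 0.16), *Adcy6* (0.31, SE 0.17), and *Aqp6* (-0.47, SE 0.27) in females.

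Of 16 collecting duct transcription and signaling factors, 15 were tested. Of these, 5 were called lower in males and 0 higher, against 19.8% and 18.9% of all genes tested. They were *Hoxd8* (-0.74, SE 0.08), *Hes1* (-0.55, SE 0.12), a target of Notch, *Jag1* (-0.52, SE 0.13), a Notch ligand, *Gata2* (-0.45, SE 0.12), a relative of *Gata3*, and *Grhl2* (-0.66, SE 0.21). By diet 0 were called. The kidney developmental factor *Pax8* had the smallest p in males (-0.34, SE 0.10, unadjusted p = 0.004529, adjusted p = 0.9996 in edgeR), followed by *Hes1* (0.24, SE 0.18) and *Pax2* (-0.28, SE 0.22). In females these were *Elf5* (-1.06, SE 0.45, unadjusted p = 0.04102), a factor of the principal cell, *Emx2* (-0.26, SE 0.14), and *Pax2* (-0.32, SE 0.20).

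Of 18 collecting duct epithelial genes, 8 were called lower in males and 0 higher, against 19.8% and 18.9% of all genes tested. They were *Rhcg* (-0.96, SE 0.13), an ammonia channel, *Npnt* (-0.88, SE 0.13), *Cldn8* (-0.73, SE 0.13), and *Cldn7* (-0.57, SE 0.18), both of the tight junction, *Apela* (-1.28, SE 0.25), a peptide hormone, *Mal* (-0.47, SE 0.12), *Epcam* (-0.75, SE 0.19), and the keratin *Krt7* (-0.42, SE 0.14). By diet 0 were called. The smallest p in males were those of *Tmem45b* (1.44, SE 0.53, unadjusted p = 0.01897, adjusted p = 0.9996 in edgeR), *Npnt* (0.29, SE 0.13), and *Cldn4* (0.71, SE 0.34). In females they were those of *Krt18* (-0.53, SE 0.20, unadjusted p = 0.02559, adjusted p = 0.8857 in edgeR), *Krt7* (-0.42, SE 0.19), and *Apela* (-0.46, SE 0.26).

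The smallest p over both sexes and for the interaction came from much the same genes. Over both sexes they were *Kcnj10* (0.26, SE 0.10), *Cnksr3* (0.21, SE 0.13), and *Fxyd2* (-0.29, SE 0.18) of the sodium list, *Avpr1a* (0.36, SE 0.17), *Adcy6* (0.25, SE 0.12), and *Gnas* (-0.11, SE 0.06) of the vasopressin list, *Pax8* (-0.30, SE 0.09), *Pax2* (-0.30, SE 0.16), and *Hes1* (0.19, SE 0.12) of the transcription factors, and *Cldn8* (0.35, SE 0.13), *Apela* (-0.57, SE 0.25), and *Wnt7b* (-0.43, SE 0.31) of the epithelial genes. For the interaction the smallest was *Tmem45b* (-2.27, SE 0.79, unadjusted p = 0.01057, adjusted p = 0.9771 in edgeR), followed in its list by *Krt18* (-0.95, SE 0.46) and *Krt7* (-0.55, SE 0.29). The others were *Prkaca* (0.34, SE 0.13), *Aqp11* (0.31, SE 0.20), and *Aqp6* (-0.56, SE 0.46), *Spint2* (-0.44, SE 0.30), *Fxyd2* (-0.45, SE 0.36), and *Nedd4* (0.28, SE 0.24), and *Gata2* (-0.29, SE 0.24), *Hoxd8* (-0.16, SE 0.15), and *Elf3* (-0.48, SE 0.56). None was called.

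Mice that were high in one member were not high in all. Correlations of log2 CPM over 18 libraries, after group means were removed, are given as a description, and their points share library and depth. The highest among the members was that of *Aqp2* and *Fxyd4* (r = 0.925). *Aqp4* and *Gata3* followed (r = 0.689), and then *Scnn1a* with *Scnn1b* (r = 0.658) and with *Nedd4l* (r = 0.656). NP male 3 was the lowest NP male in 6 of 9 members and NP male 5 the highest in 5.

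Set against the marker lists, the members divided by gene. *Scnn1b* was closest to the summed intercalated cell markers (r = 0.846). *Nedd4l* was closest to the glucocorticoid response genes (r = 0.882) and the thick ascending limb markers (r = 0.859). *Scnn1a* also followed the glucocorticoid response genes (r = 0.810). These orders were not kept in every group. Among NP males, NP male 5 had the highest thick ascending limb sum (5328 CPM) and the lowest *Nedd4l* (100.4 CPM). NP male 3 had the highest glucocorticoid response sum of the NP males (1095 CPM) and their lowest *Scnn1a* (96.4 CPM). The part of the females that stood apart in these r values was not tested. *Aqp4*, *Aqp2*, and *Fxyd4* followed the thin limb markers (r = 0.798, 0.769, and 0.674), whereas *Fxyd4* (r = -0.772), *Aqp3* (r = -0.644), and *Aqp2* (r = -0.601) ran opposite to the distal convoluted tubule markers.

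**Figure D4:**
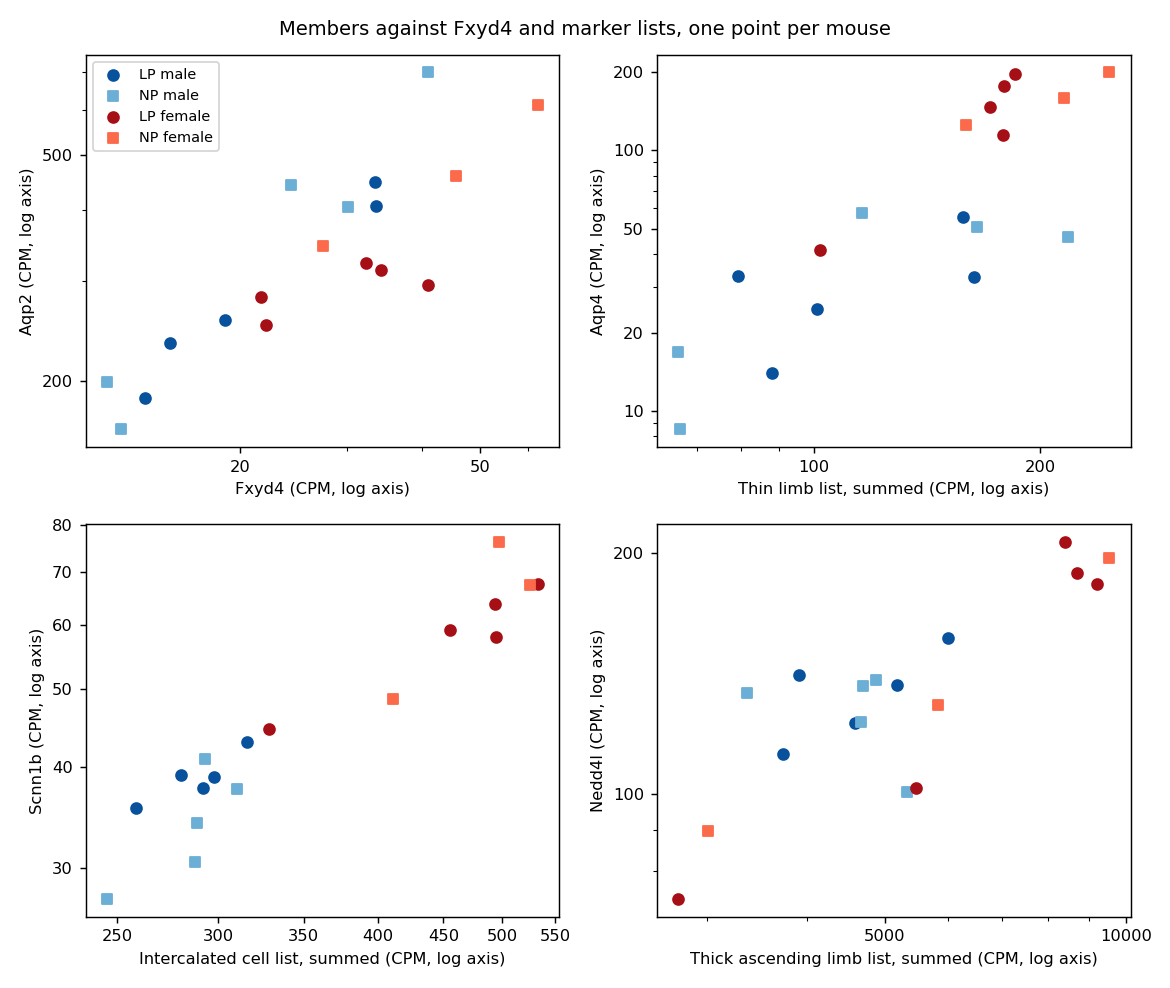
Levels in each mouse on log axes, in CPM: *Aqp2* against *Fxyd4*, *Aqp4* against summed thin limb markers, *Scnn1b* against summed intercalated cell markers, and *Nedd4l* against summed thick ascending limb markers; each point is 1 mouse, coloured by group. After group means were removed, r was 0.925, 0.798, 0.846, and 0.859. Among NP males, NP male 5 had the highest thick ascending limb sum and the lowest *Nedd4l*.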

How the data were processed

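Kidney RNA of 18 mice was poly(A)-selected and sequenced from non-directional libraries. The authors removed low-quality reads and adapter sequence and used STAR to align the rest to the mouse genome (GRCm39, GENCODE vM36) and count them per gene. They deposited raw counts, without regard to strand and for each strand. The column without regard to strand was used, and the sum of the per-strand columns for *Avpr2*. Totals of reads not counted on a gene were left out. Gene names and positions were those of GENCODE vM39 (GRCm39), where 78168 of 78239 listed genes were found, and upstream sequences from RefSeq on GRCm38.p6.

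A gene was tested if each library compared had 10 or more counts of it. The test was edgeR's quasi-likelihood F test (version 4.0.16, R 4.3.3) after TMM normalization, with Benjamini-Hochberg adjustment over all genes tested. A call is an adjusted p under 0.05. LP and NP were compared in males, in females, and over both sexes, with the diet by sex interaction, and males with females. The SE is the log2 fold change divided by the square root of F. Libraries are separate mice. The study took adults from a few litters, which the sources used here do not tie to libraries, so a group may hold littermates, whereas the p-values treat mice as independent. The tests were first run on simulated data.

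Alternatives were no filter, filterByExpr, DESeq2's size factors, the DESeq2 1.42.0 Wald test, limma-voom (limma 3.58.1), the replicate number as a block, 1 model for 4 groups, a 1.5-fold minimum, within-diet fits, and leaving out libraries. The members and gene lists were chosen with earlier results of these data known. Genes named are the 10 members, list genes with a call or otherwise the 3 with the smallest unadjusted p per list and comparison, markers beside results they move with, and the 10 genes most correlated with the members' mean, of which 1 is not reported here. Python 3.11.15 with pandas 2.3.3 and numpy 2.4.6 was used for tables.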

Additional observations from a re-analysis of the deposited data

Results flagged for a closer look

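*Scnn1g* in NP male 3, at 27.4 CPM, lay far below the other 4 NP males, which were between 33.0 and 35.3 CPM. It was the 1 such value among 27 combinations of member and group of 5 mice that were examined, and chance gives about 1 in 20. NP male 3 also had the highest sum of urothelial markers.

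*Avpr2* had up to 633 reads in a library when the per-strand columns were summed, although the column without regard to strand held at most 4.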

How the results depend on the processing

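No diet or interaction alternative called a member, and the lowest adjusted p was 0.1057 for *Gata3* and 0.1129 for *Aqp2* in females. Between the sexes 6 members were called, 5 to 6 without any 1 library, 3 within LP, and 5 within NP, and the cause was not tested. Genes called numbered 5 in males and 1 to 19 under alternatives, 0 and 0 to 9 in females, 1 and 1 to 16 over both sexes, 2 and 0 to 4 for the interaction, and 4900 and 1954 to 5887 between the sexes. All values that changed sign were uncalled, and the cause was not tested. They are log2 fold changes. With limma-voom, males gave 0.036 for *Aqp4* and 0.018 for *Fxyd4*, females -0.0106 for *Scnn1g*, both sexes 0.0164 for *Scnn1b*, and the interaction -0.0373 for *Nedd4l*. *Scnn1b* over both sexes was 0.0308 with no filter and 0.0103 with filterByExpr. With all 4 groups in 1 model, *Scnn1g* in females was -0.0031. Without LP female 1, LP female 2, and NP female 3, females gave 0.17 for *Scnn1a*, 0.12 for *Scnn1b*, and -0.26 for *Aqp3*, both sexes 0.11 for *Scnn1a* and 0.15 for *Scnn1b*, and the interaction 0.0969 for *Scnn1a* and 0.0094 for *Aqp4*. Without the 3 libraries richest in urothelial markers, *Gata3* in males was -0.0802, and the interaction 0.40 for *Aqp4* and -0.0638 for *Nedd4l*. With summed strand columns, *Scnn1g* in females was -0.0085 and the interaction of *Nedd4l* -0.0172. Within LP, males minus females was 0.0287 for *Aqp2* and -0.146 for *Aqp3*.

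Without any 1 library, values in males ranged from -0.0019 to 0.14 for *Scnn1a*, -0.50 to 0.0056 for *Aqp2*, -0.47 to 0.0592 for *Aqp4*, -0.0154 to 0.18 for *Gata3*, -0.0043 to 0.13 for *Nedd4l*, and -0.23 to 0.21 for *Fxyd4*. In females they ranged from -0.28 to 0.019 for *Scnn1a*, -0.34 to 0.017 for *Scnn1b*, -0.0851 to 0.0954 for *Scnn1g*, -0.0194 to 0.19 for *Aqp3*, and -0.12 to 0.42 for *Nedd4l*. Over both sexes they ranged from -0.12 to 0.0256 for *Scnn1a*, -0.093 to 0.0955 for *Scnn1b*, and -0.0264 to 0.23 for *Nedd4l*. For the interaction they ranged from -0.36 to 0.17 for *Aqp4* and -0.20 to 0.32 for *Nedd4l*.

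Libraries with the same replicate number did not deviate together (the median correlation was -0.151 across diets in males and -0.439 in females), so the comparisons were unpaired. With the replicate block, 0 members were called by diet and 6 between the sexes, *Scnn1g* and *Nedd4l* in females were at -0.14 and -0.27, and the interaction of *Nedd4l* was -0.11. Among the members tested, *Gata3*, *Aqp4*, and *Fxyd4* had the lowest counts, at 114, 132, and 177, and the part of depth in their spread was not tested.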

Other observations

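The genes most like the members were found by correlation with the mean of the 9 standardized members over 18 libraries, after group means were removed. Members were left out, and r is a description. Of the 10 highest, 9 were *Muc1* (r = 0.899), an apical mucin of the distal nephron, *Paqr5* (0.892), *Bcam* (0.878), *Adgrg1* (0.874), *Gprc5a* (0.871), *Hoxb6* (0.866), *Pbxip1* (0.862), *Tjp3* (0.852), of the tight junction, and *Blnk* (0.847).

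Distal convoluted tubule markers were measured beside the members. Of 5, all were higher in LP males than in NP males, 3 of them at an unadjusted p under 0.05 and 0 called by edgeR, with sums of 842 to 1320 CPM in LP males and 701 to 921 CPM in NP males. The median log2 fold change of the 5 was 0.52. Of all genes tested in males, 3.84% had an unadjusted p under 0.05 in edgeR and 48.8% had values above 0.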
